A study of Mus musculus with 6 samples.

Results

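Cholesterol is made and handled in the testis by a set of 33 genes, chosen by name for synthesis, uptake, storage and control of sterols, the substrate supply of steroid hormones. All 33 were found among the 55536 genes of the count table, and all 33 passed the filter on low counts, which left 20744 tested genes. RNA was sequenced from the testes of 4-month-old mice of 3 inbred lines on the FVB/NJ background, with 2 mice and so 2 libraries per line, numbered 1 and 2. WT is FVB/NJ itself. P2KO is homozygous for a gene trap in Padi2, in which the coding part of exon 1 was replaced by LacZ and a neomycin resistance gene. DKO carries the same Padi2 allele together with a CRISPR deletion of 4 nucleotides in exon 1 of Padi4, and the whole line descends from 1 edited founder. No allele is restricted to a cell type, so every cell of the testis carries it. P2KO was compared with WT for the Padi2 allele, DKO with WT for both alleles, and DKO with P2KO for the added Padi4 deletion. Since every genotype is a separate inbred line, other differences between the lines cannot be told apart from the alleles. Each pair of these comparisons shares the libraries of a line, so their values are set side by side and are not independent of each other.

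Cells build cholesterol from acetyl-CoA in a long chain of enzymes. The early steps, from acetoacetyl-CoA through mevalonate, end in squalene, and the late steps turn squalene into lanosterol and then remove methyl groups and shift unsaturated bonds until cholesterol is reached. The chain is switched on by SREBP transcription factors, which are held in the endoplasmic reticulum by INSIG proteins and carried to the Golgi by SCAP when sterol falls. In the testis, Leydig cells use cholesterol to make testosterone, germ cells and Sertoli cells make, take up and pass on sterol, and the scavenger receptor encoded by Scarb1 brings in cholesterol ester from lipoproteins. The 33 genes were ordered by these roles into 9 genes of early synthesis, 10 of late synthesis, 5 of SREBP control and 9 of uptake, storage and transport.

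The libraries held from 21939393 to 27306679 counts on genes, and TMM scaling factors ran from 0.984 to 1.02. Replicates of a line differed beyond sampling noise, with a chi-square per degree of freedom from 3.31 to 4.72. Padi4 had counts of 20 and 43 in WT, 11 and 10 in P2KO, and 4 and 4 in DKO. Padi4 thus lay lower in P2KO too, at a log2 fold change of -1.63 against WT, though not called (adjusted p = 0.0959 by edgeR). Padi2 had counts of 47 and 64 in WT, 100 and 55 in P2KO, and 59 and 83 in DKO. Padi2 was thus not lower in either knockout line, at log2 fold changes of 0.40 in P2KO and 0.35 in DKO against WT, neither called. The paper, by contrast, reports no Padi2 transcript in either line by RT-PCR of salivary gland. The count is over the whole gene, and reads outside the replaced stretch were not counted apart. The reason was not tested, and the Padi2 count does not bear out the label of the P2KO and DKO libraries. Markers of Leydig cells, Sertoli cells and all germ cell stages were present in every library, while the 4 epididymis markers were near 0 and none of them passed the filter.

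Levels of the 33 genes in WT are given as RPKM, reads per kilobase of merged exons scaled to library size, which takes gene length into account. The merged exons span all annotated transcripts of a gene (10787 nucleotides for Lss, 4403 for Tm7sf2). The order of genes can therefore depend in part on the annotation. Fdft1, which encodes squalene synthase, was by far the most abundant, at 104 and 101 RPKM in the WT libraries. The next were Cyp51 at 21.0 ± 0.570 RPKM (SD, n = 2), which removes a methyl group from lanosterol, and Sqle at 20.8 ± 0.577 RPKM (SD, n = 2), which makes squalene epoxide. These neighbours in the order overlapped between libraries and could not be ranked. Hmgcs1, which makes HMG-CoA, stood at 17.3 ± 0.532 RPKM, Scarb1 at 15.7 ± 0.0981 RPKM and Insig2 at 14.0 ± 1.03 RPKM (SD, n = 2 each). A mean level above 1 RPKM was found for 27 of the 33 genes. Hsd17b7, a keto reductase of the late steps, was the least abundant late synthesis gene, at 0.862 ± 0.0791 RPKM (SD, n = 2). At the low end of all 33 genes were Mylip, which encodes a ubiquitin ligase that lowers lipoprotein receptors, Fdps, which makes farnesyl diphosphate, and Abcg1, a sterol exporter, at 0.592, 0.350 and 0.168 RPKM. Of the 32 pairs of neighbours in the order, 14 overlapped between the 2 WT libraries. Fdps rests on 28 to 48 counts per library. It also has 5 near-identical copies in the annotation, so its level is uncertain. A bulk library cannot tell fewer cells of a type from less RNA per cell, and this holds for every value below.

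**Figure D1:**
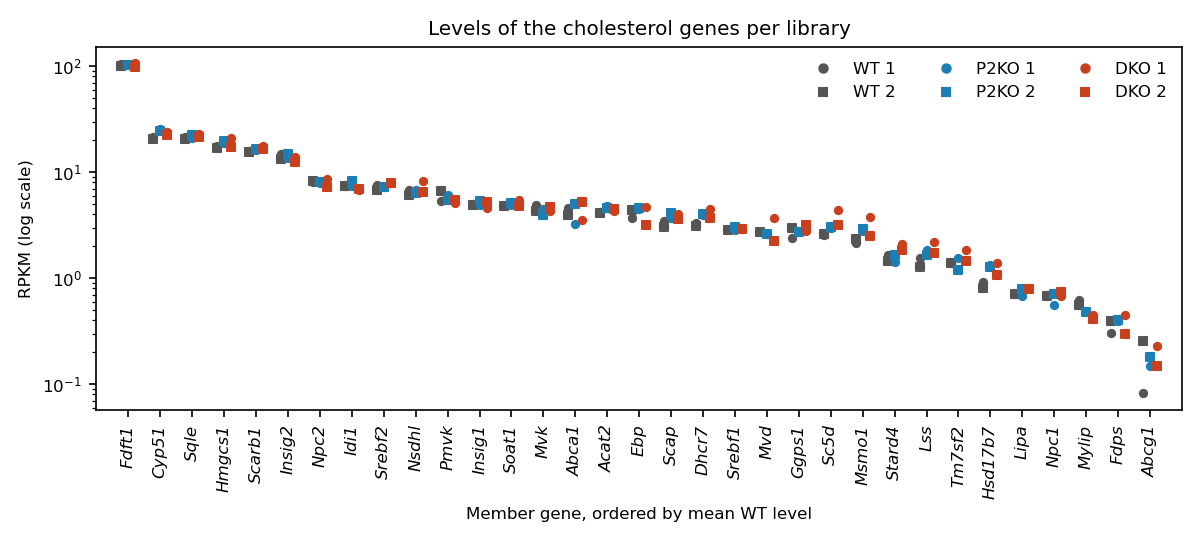
Level of each of the 33 genes in RPKM on a log scale, ordered by the mean in WT, with 1 point per library (circles replicate 1, squares replicate 2; grey WT, blue P2KO, red DKO). Fdft1 stands alone near 102 RPKM, and the levels fall to 0.168 RPKM at Abcg1.

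Sc5d, Lss, Msmo1 and Dhcr7 were called higher in DKO than in WT, at 1.48-fold, 1.39-fold, 1.40-fold and 1.27-fold, and no member was called lower. At an unadjusted p under 0.05, 9 of the 33 (27.3%) were higher and 0 lower by edgeR, where 7.89% of all tested genes were higher and 6.25% lower. All 4 are among the 10 late synthesis genes. The calls make up 4 of 33 genes (12.1%), where 2.06% of all tested genes were called higher and 1.16% lower in the same comparison. A call is an adjusted p under 0.05 in edgeR's quasi-likelihood test. All 4 calls rested on library DKO 1, since without it 0 of the 33 genes were called, with 3 higher and 1 lower at an unadjusted p under 0.05, and without WT 2 the calls were Msmo1 and Sc5d. DESeq2 called Sc5d alone over all libraries, with 6 genes higher at an unadjusted p under 0.05, and 0 genes over the WT and DKO libraries, with 4 higher.

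Sc5d encodes the desaturase that forms 7-dehydrocholesterol. Its normalized counts, which are counts corrected for library size, were 302 and 311 in WT, 353 and 360 in P2KO, and 523 and 382 in DKO. Both DKO libraries lay above all others and DKO 1 lay far above DKO 2. The log2 fold change from WT to DKO was 0.56 ± 0.120 (SE) with an adjusted p of 0.00318 by edgeR, and without DKO 1 it was 0.31.

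Lss encodes lanosterol synthase, which closes the sterol rings. Its normalized counts were 409 and 336 in WT, 490 and 441 in P2KO, and 577 and 453 in DKO. Both knockout lines lay above WT, and DKO 2 lay within the range of P2KO. The log2 fold change from WT to DKO was 0.48 ± 0.114 (SE), with an adjusted p of 0.0107 by edgeR.

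Msmo1 encodes the oxidase that starts the removal of the methyl groups at carbon 4 of the sterol. Its normalized counts were 320 and 355 in WT, 421 and 434 in P2KO, and 569 and 374 in DKO. DKO 2 lay below both P2KO libraries but above both WT libraries. The log2 fold change from WT to DKO was 0.49 ± 0.128 (SE), with an adjusted p of 0.0232 by edgeR.

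Dhcr7 encodes the reductase that makes cholesterol from 7-dehydrocholesterol, the product of Sc5d. Its normalized counts were 473 and 442 in WT, 566 and 578 in P2KO, and 637 and 522 in DKO. Again no knockout library overlapped WT, and DKO 2 was the lowest of the 4 knockout libraries. The log2 fold change from WT to DKO was 0.35 ± 0.0998 (SE), with an adjusted p of 0.0466 by edgeR.

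**Figure D2:**
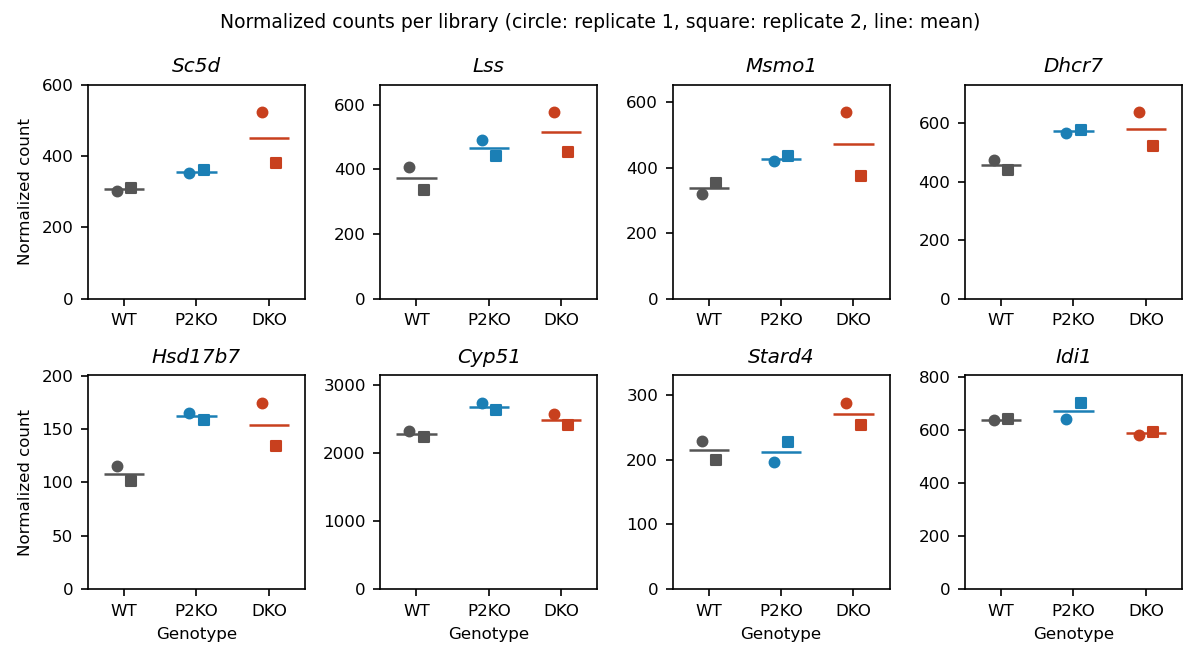
Normalized count in each library (circles replicate 1, squares replicate 2, line the mean of a line's 2 libraries) for the 8 genes reported in full, with each vertical axis starting at 0. Sc5d, Lss, Msmo1, Dhcr7, Hsd17b7 and Cyp51 have both WT libraries below all knockout libraries, and DKO 1 is above DKO 2 in each of these.

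Hsd17b7, Cyp51, Stard4 and Idi1 were not called in any comparison. Hsd17b7 had normalized counts of 115 and 101 in WT, 165 and 159 in P2KO, and 174 and 134 in DKO, so that WT lay below both knockout lines. Its log2 fold change from WT to DKO was 0.52 ± 0.166 (SE), with an adjusted p of 0.0816 by edgeR. In the fits that left out a library the fold change of Hsd17b7 ran from 0.31 to 0.70 on this scale. Cyp51 had normalized counts of 2323 and 2236 in WT, 2742 and 2633 in P2KO, and 2581 and 2414 in DKO. Both knockout lines lay above WT, P2KO more so, and the log2 fold change from WT to DKO was 0.13 ± 0.0646 (SE; adjusted p = 0.346 by edgeR). Leaving out a library moved this value of Cyp51 between 0.078 and 0.18. Stard4, which encodes a protein that carries sterol between membranes, had normalized counts of 229 and 200 in WT, 196 and 227 in P2KO, and 287 and 253 in DKO. DKO lay above the other lines, which overlapped, and its log2 fold change from WT was 0.34 ± 0.131 (SE; adjusted p = 0.185 by edgeR). Idi1, which interconverts the C5 units of the pathway, had normalized counts of 640 and 641 in WT, 642 and 703 in P2KO, and 581 and 594 in DKO. DKO lay below the other lines in Idi1, at a log2 fold change of -0.12 ± 0.0885 (SE) from WT and an adjusted p of 0.590 by edgeR.

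The roles are described by their counts, and no difference between roles was tested. From WT to DKO, 9 of 10 late genes had a positive fold change, 8 of 10 had both DKO libraries above both WT libraries, and 4 of 10 were called. The median log2 fold change of the 10 was 0.30, beside -0.0048 over all tested genes, of which 21.6% had DKO above WT without overlap. The exception was Ebp, the sterol isomerase, at -0.034. Sqle, Nsdhl and Tm7sf2, which encode squalene epoxidase, a decarboxylating dehydrogenase and a sterol reductase, stood at 0.085, 0.19 and 0.25 and were not called. In early synthesis 0 of 9 genes were called in DKO against WT, 5 of 9 were positive and the median was 0.076. Of all tested genes 2.06% were called higher, 1.16% lower and 48.8% were positive, so these early counts are near the shares of all genes. Among the early genes Hmgcs1 had the largest positive value, 0.15, and Pmvk, a mevalonate pathway kinase, the most negative, -0.19. Fdft1, the last early step, stood at -0.0066 ± 0.0563 (SE). At an unadjusted p under 0.05, edgeR had 0 of the 9 early genes higher and 0 lower.

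SREBP control had 0 of 5 genes called by edgeR from WT to DKO, and 1, Scap, was higher at an unadjusted p under 0.05. Scap, the SREBP escort, stood at 0.23 on the log2 scale, with 631 and 553 normalized counts in WT and 730 and 654 in DKO. Srebf2, which encodes the SREBP that acts mainly on cholesterol genes, stood at 0.14, Srebf1 at 0.028, Insig1 at -0.0029 and Insig2 at -0.083. In uptake, storage and transport 0 of 9 were called and 2 were higher at an unadjusted p under 0.05, Stard4 and Scarb1, beside 7.89% of all tested genes. Scarb1 had normalized counts of 3288 and 3259 in WT, 3357 and 3458 in P2KO, and 3684 and 3473 in DKO. It was ordered WT, P2KO, DKO with no overlap, by a log2 fold change of 0.13 from WT to DKO. Soat1, which esterifies cholesterol for storage, Lipa, which frees it in lysosomes, and Npc1, which moves it out of them, stood at 0.081, 0.17 and 0.051, and Npc2, the partner of Npc1, at -0.042. The exporters Abca1 and Abcg1 stood at 0.040 and 0.13, with wide spread between replicates (Abca1: 903 and 1342 normalized counts in DKO). Mylip had the lowest value of the 33 genes, -0.45 ± 0.270 (SE), on 31 to 48 counts per library.

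**Figure D3:**
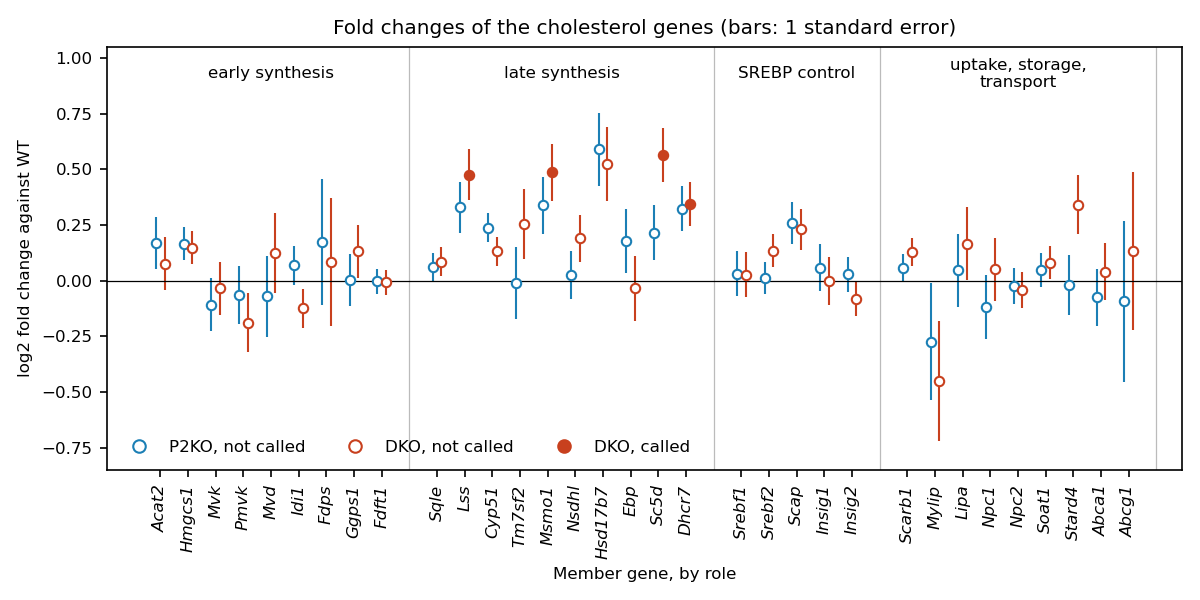
Log2 fold change against WT of each gene by role, P2KO in blue and DKO in red, with bars of 1 standard error and filled points for called genes. The 4 filled points, Sc5d, Lss, Msmo1 and Dhcr7, all lie in late synthesis.

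In P2KO, the line with the Padi2 allele only, 0 of 33 genes were called against WT by edgeR. Of all tested genes 0.198% were called higher and 0.14% lower. At an unadjusted p under 0.05, 7 of the 33 were higher and 0 lower, where 4.55% of all tested genes were higher. DESeq2 also called 0, with 5 higher at an unadjusted p under 0.05 over all libraries and 7 over the WT and P2KO libraries alone. Of the 7 in edgeR, 5 were late synthesis genes (Cyp51, Hsd17b7, Dhcr7, Lss and Msmo1), and the other two were Scap and Hmgcs1. The smallest p belonged to Cyp51, with a log2 fold change of 0.24 ± 0.0643 (SE; adjusted p = 0.121 by edgeR). Hsd17b7 followed at 0.59 ± 0.164 (SE; adjusted p = 0.148 by edgeR), a mean of 108 normalized counts in WT against 162 in P2KO. Dhcr7 stood at 0.32 ± 0.0996 (SE), with an adjusted p of 0.236 by edgeR. The other named genes were Lss at 0.33 ± 0.115 (SE), Msmo1 at 0.34 ± 0.129, Sc5d at 0.22 ± 0.123, Idi1 at 0.069 ± 0.0871 and Stard4 at -0.020 ± 0.135, with adjusted p from 0.329 to 0.987 by edgeR. Of the late genes 9 of 10 were positive, with a median of 0.23, and 7 of 10 had both P2KO libraries above both WT libraries, beside 51.0% positive, a median of 0.0035 and 18.7% above without overlap over all tested genes. Without library WT 1, Cyp51 and Lss were called, which makes 2 of 33. Without P2KO 2, 4 genes were higher and 1 lower at an unadjusted p under 0.05, and no gene was called.

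From P2KO to DKO, the comparison for the added Padi4 deletion, 0 of 33 genes were called by edgeR. Of all tested genes 0.607% were called higher and 0.598% lower. At an unadjusted p under 0.05, 2 of the 33 (6.06%) were higher and 1 lower by edgeR, where 6.17% of all tested genes were higher and 5.68% lower, so the share higher is near that of all genes. DESeq2 called 0, with 2 higher over all libraries and 1 higher over the 2 knockout lines alone. The 3 genes, given for their small unadjusted p, were Sc5d at 0.35 ± 0.117 (SE; adjusted p = 0.163 by edgeR), Stard4 at 0.36 ± 0.131 (SE; adjusted p = 0.204 by edgeR) and Idi1 at -0.19 ± 0.0878 (SE; adjusted p = 0.367 by edgeR). Lss, Msmo1, Dhcr7, Hsd17b7 and Cyp51 stood at 0.15, 0.15, 0.022, -0.068 and -0.11. For Lss, Msmo1, Dhcr7 and Hsd17b7 the sign turned when DKO 1 or DKO 2 was left out, so the order of the 2 knockout lines in these genes depends on single libraries. For Sc5d the log2 fold change in DKO against P2KO stayed positive but ran from 0.096 to 0.55 when 1 library was left out.

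The DKO libraries differed from each other mainly in late synthesis. DKO 1 was above DKO 2 in 14 of the 19 synthesis genes, with a median log2 ratio of 0.29. Over all tested genes DKO 1 was above DKO 2 in 49.8%, with a median of -0.00085. All late genes had DKO 1 above DKO 2, while the early genes Acat2, Mvk, Pmvk, Idi1 and Ggps1 had DKO 2 above DKO 1. Replicate 1 was above replicate 2 in 11 of 19 in WT and 9 of 19 in P2KO. Of the 10 late genes, 9 had their highest value of the 6 libraries in DKO 1, and Cyp51 had it in P2KO 1. DKO 1 was above both WT libraries in all 10 late genes and DKO 2 in 8 of 10. The summed normalized count of the late genes was 7660 and 7382 in WT, 8472 and 8507 in P2KO, and 9199 and 7970 in DKO. Against the WT mean this placed DKO 1 at 122%, DKO 2 at 106% and P2KO at 113% in both libraries. The summed early genes ran from 96.4% to 105% of the WT mean.

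The summed Leydig cell markers, of which Cyp17a1 takes the largest part, were also highest in DKO 1, as were 5 of the 8 single markers. Their summed normalized count was 18672 and 18365 in WT, 20878 and 18732 in P2KO, and 24102 and 19946 in DKO, or 130% of the WT mean in DKO 1 and 108% in DKO 2. In P2KO they stood at 113% and 101%, where the late genes stood at 113% in both libraries. Of the 8 markers, 4 were called higher in DKO than in WT by edgeR. These were Star (log2 fold change 0.51, adjusted p = 1.59e-04), which brings cholesterol into mitochondria, Hsd3b6 (0.41, 3.08e-04), Cyp17a1 (0.31, 0.0193) and Cyp11a1 (0.28, 0.0324), and 1, Hsd3b1 (-0.46, 2.73e-04), was called lower. The other three were not called, at 0.078 for Hsd17b3, 0.040 for Insl3 and -0.38 for Lhcgr, the receptor for luteinizing hormone, with 204 and 193 normalized counts in DKO against 238 and 276 in WT. Hsd3b1 was lowest in DKO 1, at 1385 normalized counts against 1961 and 2299 in WT. Star, unlike the late genes, was nearly equal in the DKO libraries, at 2968 and 2923 normalized counts against 2175 and 1967 in WT. The 5 markers of elongating spermatids, a late germ cell stage, all had negative fold changes in both knockout lines, with Tnp1 and Prm1 called lower in DKO and Tnp2 in P2KO. Their sum was 83.2% to 92.1% of the WT mean in the 4 knockout libraries. Sertoli, spermatogonia, spermatocyte, myoid, macrophage, endothelial and blood markers were grouped because none of their 34 tested genes was called by edgeR in any comparison. By edgeR 7, 4 and 8 of them had an unadjusted p under 0.05 in P2KO against WT, DKO against WT and DKO against P2KO. Over all tested genes the shares higher and lower were 4.55% and 4.02%, 7.89% and 6.25%, and 6.17% and 5.68%, in the same order. The shares of these markers were above those of all genes in P2KO against WT and DKO against P2KO, but not in DKO against WT. Among round spermatid markers Spaca1 was called lower in DKO than in P2KO, and among adipocyte markers Car3 was called lower in P2KO than in WT and higher in DKO than in P2KO. Whether shifts in these cells take part in the values of the cholesterol genes was not tested.

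**Figure D4:**
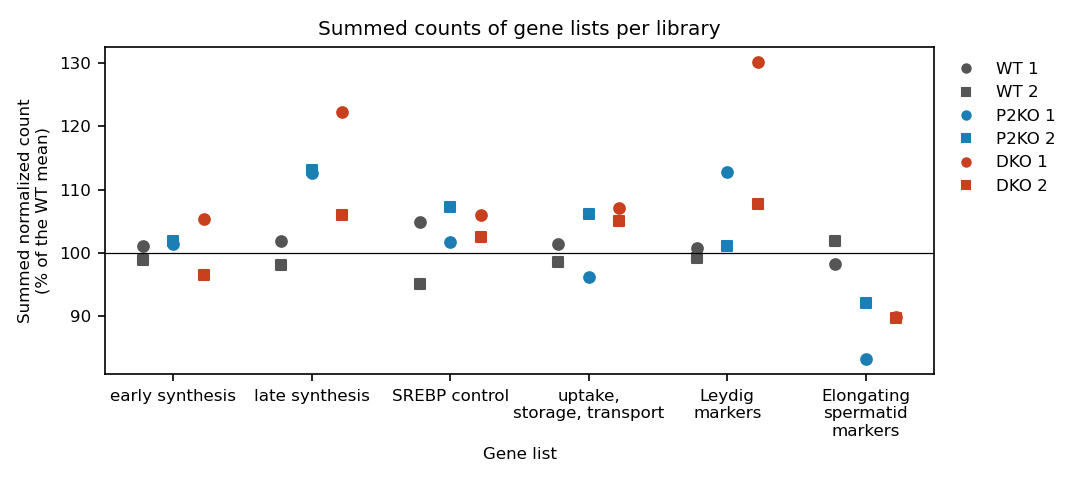
Summed normalized counts of the genes of each role and of the Leydig cell and elongating spermatid markers, as a percent of the WT mean, with 1 point per library (the axis does not start at 0). DKO 1 is highest in late synthesis (122%) and in the Leydig markers (130%), and the elongating spermatid markers lie at 83.2% to 92.1% in the knockout libraries.

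Promoter sequence was examined because SREBP acts through a short element that often stands near CCAAT and GC boxes. RefSeq windows of 300 bases, from 250 bases before to 50 after a gene's start in GRCm38.p6, were found for 26 of the 33 genes, and those of Fdps, Fdft1, Sqle, Scarb1, Npc1, Stard4 and Abcg1 were not matched. The motifs were TCACNCCAC (core of the sterol regulatory element), CCAAT (the CCAAT box) and GGGCGG (the GC box), each searched on both strands, and none of the 3 contains another. The sequences printed are those of the called genes Sc5d, Lss and Dhcr7 and, for contrast, Hmgcs1, a textbook SREBP target, each without bases of annotated exons, 5′ to 3′ on the gene's strand, with motifs on either strand in capitals. The window of Msmo1, which is mostly annotated exon, is not printed. Sc5d is chr9:42264301-42264550, minus strand. Lss is chr10:76531355-76531587, plus strand. Dhcr7 is chr7:143822917-143823144, plus strand, the first of 3 starts. Hmgcs1 is chr13:119690101-119690350, plus strand.
Sc5d: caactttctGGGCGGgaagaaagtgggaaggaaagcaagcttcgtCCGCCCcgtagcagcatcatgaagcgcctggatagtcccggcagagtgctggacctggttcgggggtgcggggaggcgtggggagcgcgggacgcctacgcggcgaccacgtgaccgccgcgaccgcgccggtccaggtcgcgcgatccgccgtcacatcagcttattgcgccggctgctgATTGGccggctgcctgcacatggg
Lss: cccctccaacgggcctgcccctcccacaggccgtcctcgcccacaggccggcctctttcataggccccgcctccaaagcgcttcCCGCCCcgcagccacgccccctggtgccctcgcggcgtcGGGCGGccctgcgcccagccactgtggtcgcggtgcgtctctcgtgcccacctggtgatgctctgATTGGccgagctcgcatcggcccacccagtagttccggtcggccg
Dhcr7: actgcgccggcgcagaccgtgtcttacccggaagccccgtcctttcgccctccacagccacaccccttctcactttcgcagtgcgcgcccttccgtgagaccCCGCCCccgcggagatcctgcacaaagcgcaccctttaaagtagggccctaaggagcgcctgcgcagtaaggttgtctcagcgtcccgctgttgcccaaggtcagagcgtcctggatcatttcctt
Hmgcs1: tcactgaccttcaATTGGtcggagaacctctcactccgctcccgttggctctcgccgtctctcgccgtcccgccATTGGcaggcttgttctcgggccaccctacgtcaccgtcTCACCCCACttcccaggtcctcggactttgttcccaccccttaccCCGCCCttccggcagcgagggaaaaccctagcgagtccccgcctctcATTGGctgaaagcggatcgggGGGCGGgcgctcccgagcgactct

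The Hmgcs1 stretch holds the only sterol element core, 137 bases before the start, with 3 CCAAT boxes and 2 GC boxes. The stretches of Sc5d and Lss each hold 1 CCAAT box and 2 GC boxes, and that of Dhcr7 holds 1 GC box and no CCAAT box, which another of its starts has. The whole window of Msmo1 holds 3 CCAAT boxes and 2 GC boxes. At least 1 window with a CCAAT box was found for 23 of 26 matched genes (88.5%), where 41.1% of all 27025 genes with a window have one. For the GC box it was 24 of 26 (92.3%) against 38.2%, and for the sterol element core 1 of 26 (3.85%) against 1.44%. By role, all 9 matched late genes hold a CCAAT box and a GC box, and 6 and 5 of the 7 matched early genes do. Both motifs were thus shared by called and uncalled members alike, and the 4 called genes have no sterol element core in these windows. The core was also absent from the windows of uncalled members such as Cyp51, Idi1, Mvd, Srebf2 and Insig1. Since the search found it in only 1 of 26 matched genes, its absence does not set the called genes apart. Whether SREBP acts on the called genes was not tested.

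The wider pathway was checked in 32 further genes of sterol handling, of which 31 were in the table and 28 were tested. In P2KO against WT 0 of the 28 were called by edgeR, with 0 higher and 2 lower at an unadjusted p under 0.05, where 4.55% of all tested genes were higher and 4.02% lower. In DKO against P2KO 0 were called by edgeR, with 4 (14.3%) higher and 0 lower at an unadjusted p under 0.05, where 6.17% of all tested genes were higher and 5.68% lower.

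Neighbours and copies limit some counts. Exons of 9 of the 33 genes overlap those of a gene on the other strand, 3 overlap a gene on the same strand, and 10 have a near-identical copy, while 19 have none of these. The strand setting of the counting is not given in the sources used here. Cyp51 shares 166 exonic nucleotides with Akap9 on the other strand, and Akap9 was itself called higher in DKO than in WT (log2 fold change 0.38, adjusted p = 5.92e-04 by edgeR). Lss shares 381 nucleotides with 4930483K19Rik, which was not called. Msmo1 has a short antisense transcript elsewhere, Gm47551, that matches it over 165 nucleotides. Sc5d and Dhcr7 have neither an overlap nor a copy. In GRCm38, Sc5d is on chromosome 9 from 42251595 to 42264256 and Dhcr7 on chromosome 7 from 143823145 to 143848410.

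The 4 calls were recomputed under other settings and without each library. Sc5d kept its call from WT to DKO in 10 of 11 other analyses and in 5 of 6 fits that left out a library. The corresponding numbers were 8 of 11 and 4 of 6 for Lss, 6 of 11 and 5 of 6 for Msmo1, and 2 of 11 and 3 of 6 for Dhcr7. The direction of all 4 held throughout, with log2 fold changes from 0.31 to 0.77 for Sc5d, 0.28 to 0.64 for Lss, 0.14 to 0.75 for Msmo1 and 0.19 to 0.48 for Dhcr7 in the fits that left out a library.

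**Figure D5:**
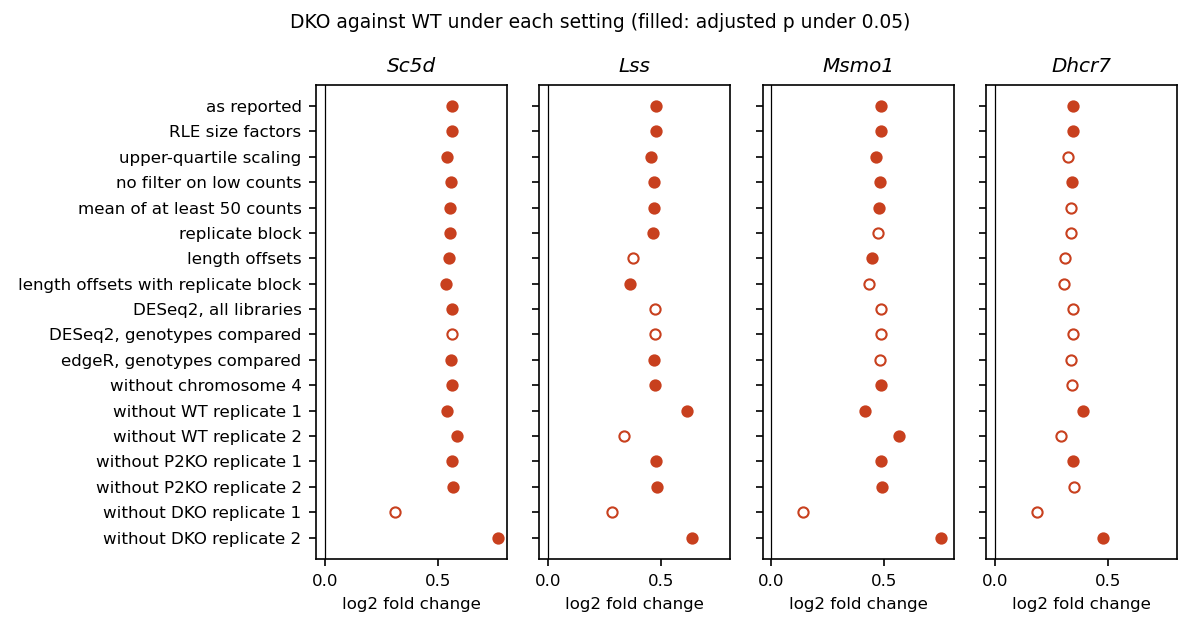
Log2 fold change of DKO against WT for the 4 called genes as reported and under each other setting, filled where the adjusted p is under 0.05. All points lie above 0, and without DKO replicate 1 the 4 points are open and lowest.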

How the data were processed

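Directional, poly(A)-selected libraries were sequenced as paired reads by the authors, trimmed with Trim Galore, aligned with STAR to GRCm38 with Ensembl annotation and counted per gene by STAR. The deposited table holds raw counts, with no normalization and no filter. Versions and the strand column counted are not given in the sources used here. All columns were mapped to a line from their labels.

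Genes kept by filterByExpr (minimum count 10) were scaled by TMM and tested in edgeR 4.0.16 (R 4.3.3) with glmQLFit and glmQLFTest on all 6 libraries, with a term for genotype, 3 residual degrees of freedom and Benjamini-Hochberg adjustment over all tested genes of a comparison. A call is an adjusted p under 0.05. The standard error is the absolute log2 fold change over the square root of F. To normalize counts, each library was put on a common scale through its TMM-scaled size, with the geometric mean over libraries as 1, and RPKM uses merged exon length from GENCODE mouse release 21. Near-identical copies have at least 95% identity over 150 nucleotides and 50% of the shorter transcript. Alternatives included DESeq2 1.42.0, other scalings and filters, length offsets and each library left out. With 2 mice per line no exact permutation test can pass 0.05. The p-values set a difference between lines against a spread pooled over all lines and moderated across genes, and they rest on these mice only. Depth limits what low genes such as Fdps, Mylip and Abcg1 can show.

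The 33 genes, the roles, the other gene lists and the tests were chosen with earlier results of these data known. Named with full statistics are members called in a comparison and the 3 with the smallest unadjusted p in it. Scap, Scarb1, Hmgcs1 and the other members given by value were described after their values were seen. The comparison of DKO with WT over the further pathway genes is not reported here.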

Additional observations from a re-analysis of the deposited data

How the results depend on the processing

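The count of members called higher in DKO than in WT was 4. It was 3 with upper-quartile scaling, a mean of at least 50 counts or chromosome 4 left out, 2 with the replicate block, with length offsets, with both, and with edgeR on the genotypes compared, 1 with DESeq2 on all libraries and 0 with DESeq2 on the genotypes compared. With RLE size factors or no filter it was 4. Leaving out a library gave 0 (without DKO 1) to 4, and 2 without WT 2. In P2KO against WT the count was 0 to 2 (2 without WT 1), and in DKO against P2KO 0 to 1 (1, Sc5d, without WT 2 or DKO 2). No member was called lower in any of these analyses. The replicate block left 0 members called in the other comparisons, and the correlation of replicate gaps between lines was -0.0572, 0.0574 and -0.0502, so the numbers were not taken as pairs.

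Direction turned for some uncalled values when a library was left out. The range was -0.13 to 0.087 for Stard4 in P2KO against WT, and in DKO against P2KO -0.28 to 0.11 for Hsd17b7, -0.14 to 0.16 for Dhcr7, -0.045 to 0.31 for Lss and -0.20 to 0.41 for Msmo1. The cause was not tested. A lone library left in a line is assumed to vary like the other lines.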
